A study of Mus musculus with 33 samples.

Results

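The E2F, pocket protein and Foxm1 regulators are 9 transcriptional regulators of the cell cycle, taken by symbol: E2f1, E2f3, E2f7, E2f8, Rb1, Rbl1, Rbl2, Foxm1 and Mybl2. All 9 were found among the 14862 gene rows of the count table, and all 9 had reads in at least 1 cell. The table holds 33 single cells, each a separate library, from the ventricles of mAG-Geminin transgenic mice, whose reporter (mAG-hGem) joins geminin to the green fluorescent protein Azami green. Every group shared that transgene, and the promoter that drives it and the strain are not given in the sources used here. Embryonic day 14.5 (E14.5) gave 10 reporter positive and 11 reporter negative cells, and postnatal day 5 (P5) gave 6 positive and 6 negative cells. The labels call each cell a cardiomyocyte, a heart muscle cell, that was positive by PCR for Tnnt2 and negative for Pdgfrb. They name no animal, so each group counts as 1 sample here. Values are therefore given with counting intervals and with the spread over cells, and no difference between groups was tested.

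Geminin protein is degraded by the anaphase-promoting complex in G1 and accumulates in S, G2 and M phase, which is what a geminin reporter reads. E2f1 and E2f3 are activators that switch on genes for DNA replication, and the pocket proteins Rb1, Rbl1 and Rbl2 bind E2F proteins and repress their targets until cyclin-dependent kinases phosphorylate them. E2f7 and E2f8 are atypical E2F proteins that bind without a DP partner and repress E2F targets later in S phase. Mybl2 (B-Myb) joins the MuvB complex and, with Foxm1, switches on genes for G2 and mitosis. The heart muscle cells of rodents divide in the fetus and largely leave the cell cycle in the first weeks after birth.

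In units of 1000000 counts, the totals ran from 2.55 to 38.47 per cell around a median of 12.81, and 2994 to 10769 genes were detected per cell. The label of cardiomyocyte was checked against 12 markers (Tnnt2, Actn2, Ttn, Ryr2 and others), whose levels were summed per cell in counts per 1000000 counts of the cell (CPM). The sums were 15770 to 45880 CPM in E14.5 positive cells and 18130 to 47660 CPM in E14.5 negative cells. In 8 of the 33 cells the markers of another cell type summed higher, and these were all 6 P5 negative cells, the P5 positive cell L2P12 and the E14.5 negative cell N10. The P5 negative cells had cardiomyocyte sums of only 0.553 to 3293 CPM, so values of that group do not describe heart muscle cells by these markers. L2P12 had 114.8 CPM of cardiomyocyte and 2605 CPM of endothelial markers, and N10 had 23420 CPM of cardiomyocyte and 46240 CPM of fibroblast and mural markers. A few further cells recur below: N24 is an E14.5 negative cell with 18940 CPM summed over 22 G1/S genes. L2P10 is a P5 positive cell with only 28.32 CPM summed over 24 G2/M genes, against 11230 to 14030 CPM in the other P5 positive cells.

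Several of these genes are themselves known E2F targets, and the promoters shown are those of the 4 genes that held a match to an E2F word. Across the 21 E14.5 cells, E2f8 had r of 0.66 with E2f7 and 0.67 with Rbl1, as a description. Other pairs were higher there, such as E2f3 with Rb1 (0.78) and E2f1 with Rbl1 (0.77). E2f3 had more reads in reporter negative cells. Whether the words bear on any of these levels was not tested. Each line gives the 250 bases before the start site, 5′ to 3′ on the gene's strand, from RefSeq on GRCm38.p6, with capitals marking matches to an E2F word. E2f8 is at chr7:48881597-48881846, Rbl1 at chr2:157204535-157204784 and E2f3 (the first of its pair of entries) at chr13:29986064-29986313, all on the minus strand, and E2f7 is at chr10:110745189-110745438 on the plus strand.
E2f8: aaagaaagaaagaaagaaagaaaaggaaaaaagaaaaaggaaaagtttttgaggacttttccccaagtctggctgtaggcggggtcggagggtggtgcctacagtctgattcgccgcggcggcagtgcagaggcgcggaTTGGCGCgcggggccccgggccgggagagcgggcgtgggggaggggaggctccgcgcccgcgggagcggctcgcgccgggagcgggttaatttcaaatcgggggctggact
Rbl1: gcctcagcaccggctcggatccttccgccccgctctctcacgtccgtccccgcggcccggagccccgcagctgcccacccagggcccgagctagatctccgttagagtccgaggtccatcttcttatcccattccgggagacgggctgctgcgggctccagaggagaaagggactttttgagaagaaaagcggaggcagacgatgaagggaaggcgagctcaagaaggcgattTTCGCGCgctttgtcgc
E2f7: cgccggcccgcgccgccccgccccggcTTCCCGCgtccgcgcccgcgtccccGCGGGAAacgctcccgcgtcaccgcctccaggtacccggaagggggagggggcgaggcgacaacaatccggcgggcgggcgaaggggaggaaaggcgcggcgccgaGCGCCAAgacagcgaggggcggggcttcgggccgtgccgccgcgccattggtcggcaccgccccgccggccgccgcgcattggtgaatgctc
E2f3: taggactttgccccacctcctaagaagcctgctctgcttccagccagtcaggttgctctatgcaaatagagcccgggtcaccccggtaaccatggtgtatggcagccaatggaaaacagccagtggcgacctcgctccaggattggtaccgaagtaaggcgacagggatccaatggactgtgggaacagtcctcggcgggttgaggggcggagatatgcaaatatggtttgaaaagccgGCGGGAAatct

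An E2F protein binds words such as TTGGCGC, and this word was searched on both strands in windows of 250 bases before to 50 bases after the start. The same search was made for TTCCCGC in these windows, and the word TTCGCGC was added to it as a known form. A last form of the E2F word was TTGCCGC on either strand. At least 1 of them was present in 9.57% of 32851 promoters of the same length, and 2 or more in 1.18%. E2f7 held 3 words, at −223, −198 and −92 from the start. E2f3 held 2, at −11 and, beyond the printed stretch, at 19 after the start. E2f8 held 1 at −111, which overlapped a reversed CCAAT at −112, and Rbl1 held 1 at −17. The CHR word TTTGAA, known from G2/M promoters, was present in 17.9% of all promoters and in those of E2f8 at −20, E2f3 at −23 and Rbl2 at −201. The windows of Rbl2 and Mybl2 and the other E2f3 window held no E2F word, which says only that these letters are not there. The E2f1 window (chr2:154569377-154569676) also held none, but it lies inside the gene as GENCODE places it and does not show the bases before that start. Promoter entries were matched for 7 of the 9 genes, and Rb1 and Foxm1 had no entry.

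At E14.5, the clearest separation by the reporter was that of Foxm1, which was read in all 10 positive cells at levels above those of all 11 negative cells. E2f7 was close to absent from negative cells, E2f3 was higher in negative cells, and E2f1, E2f8, Rb1 and Rbl1 differed by under 4-fold. At P5, positive cells had little E2f1 and E2f8, and more Foxm1 in sum than at E14.5. That Foxm1 difference was under 4-fold without L2P12 (log2 ratio 1.68). E2f3, Rbl1 and Rbl2 were also lower in sum, and L2P7 at 55.8 CPM gave 87.7% of the Rbl1 reads. The levels of most other members rested on a few cells.

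**Figure D1:**
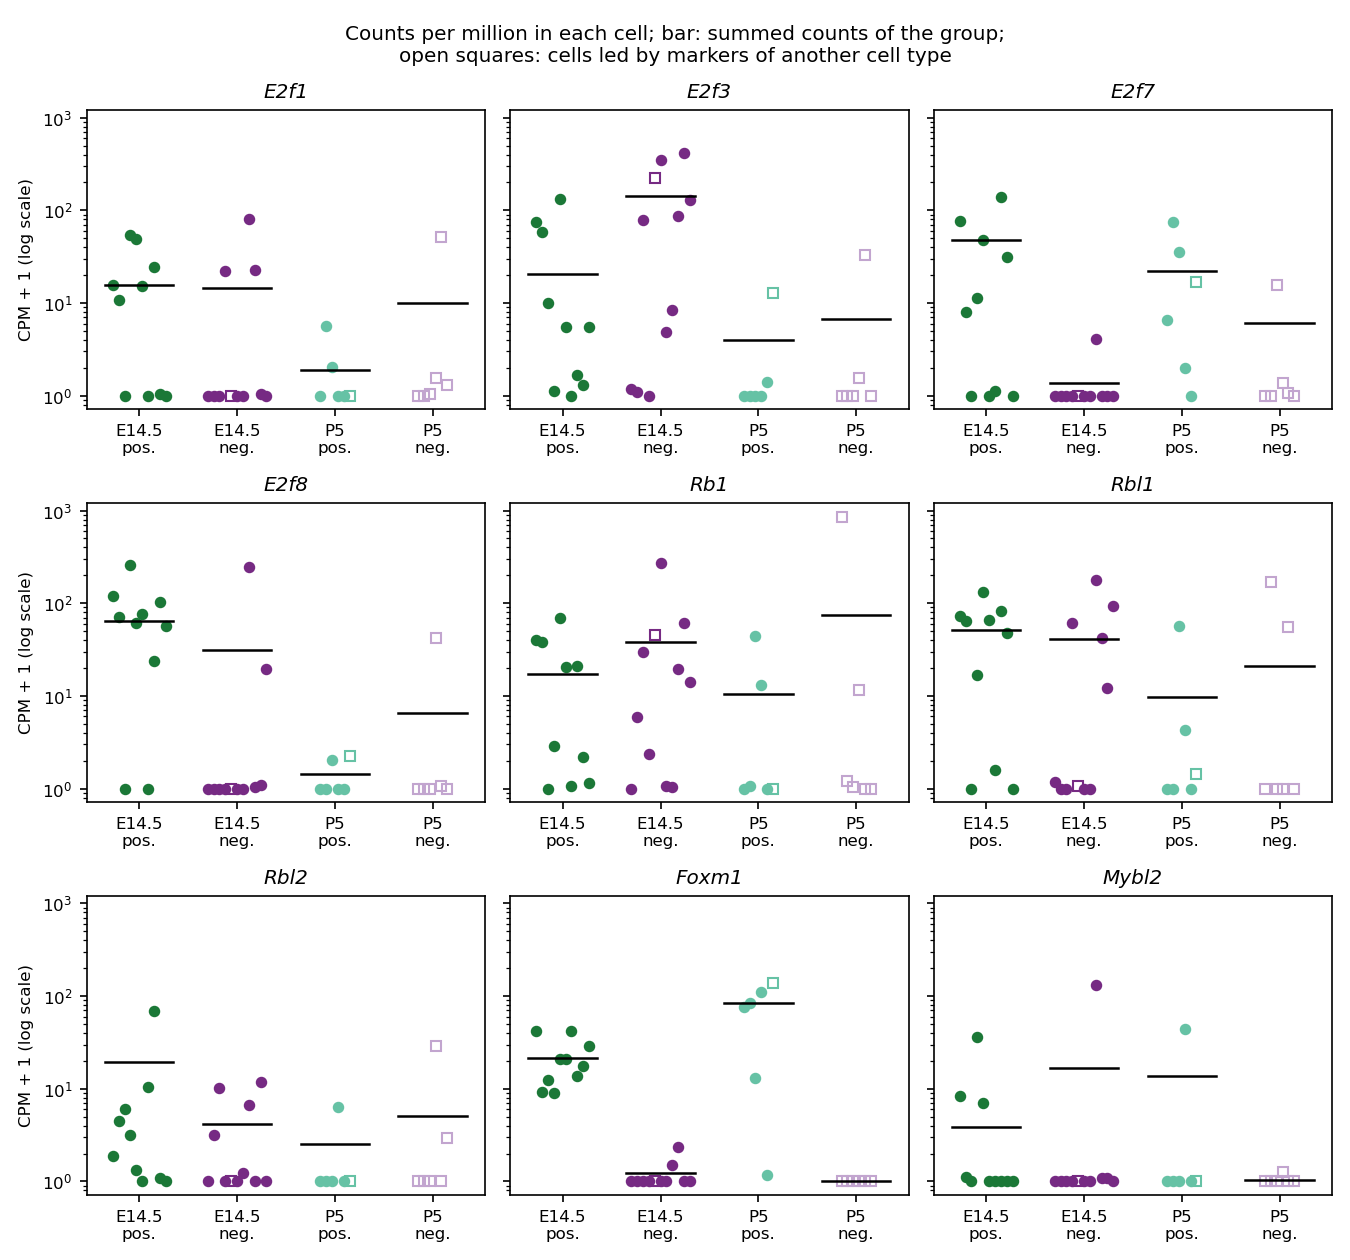
Level of each of the 9 genes in every cell (CPM + 1, log axis) by group; bars are the level of the summed counts of a group, and open squares are cells led by markers of another cell type. Foxm1 lies between 8.07 and 41.3 CPM in the E14.5 positive cells and at or below 1.38 CPM in the E14.5 negative cells, whereas the groups overlap for the other 8 genes at E14.5.

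E2f1 (chr2:154559407-154569892, minus strand; this and the following gene positions are from GENCODE M21 on GRCm38, the assembly known as mm10) was low in most cells. In E14.5 positive cells its lowest, median and highest values were 0, 11.97 and 53.4 CPM, with 3 cells at 0. In E14.5 negative cells they were 0, 0 and 79.8 CPM, and N24 alone gave 71.2% of the group's reads. The summed levels of 14.8 and 13.4 CPM differed by 0.15 on the log2 scale, and by 1.76 without N24. In P5 positive cells the summed level was 0.901 CPM and the highest cell, L2P3, had 4.59 CPM. In P5 negative cells the sum of 8.92 CPM came to 98.4% from L2N10 at 50.3 CPM. Every neighbouring pair of groups in the order E14.5 positive, E14.5 negative, P5 negative, P5 positive overlapped between cells.

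E2f3 (chr13:29906575-29986063, minus strand), the other activator, had its highest level in E14.5 negative cells. Its lowest, median and highest values there were 0, 78.1 and 416.3 CPM, against 0, 4.56 and 130.0 CPM in E14.5 positive cells. The cells N28 (416.3 CPM), N21 (348.9 CPM), N10 (222.1 CPM) and N30 (129.5 CPM) were the high ones, and the groups overlapped. The summed level was 19.3 CPM in positive and 142.5 CPM (95% interval 140.8 to 144.2) in negative cells, which is 7.37-fold lower in positive cells (log2 ratio −2.88, 95% interval −2.94 to −2.83). The log2 ratio was −3.89 without G8, the highest positive cell, and −2.12 without N28. The P5 positive sum was 2.96 CPM, of which L2P12, the cell led by endothelial markers, gave 98.2%. In P5 negative cells it was 5.71 CPM, with L2N10 at 32.3 CPM.

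E2f7 (chr10:110745439-110787384, plus strand), an atypical E2F, was read in 1 of 11 E14.5 negative cells, N24, at 3.05 CPM (71 counts). In E14.5 positive cells its lowest, median and highest values were 0, 8.58 and 138.4 CPM, with 3 cells at 0 and 71.3% of the reads in G27. The summed level of 47.3 CPM was 130-fold that of negative cells at 0.363 CPM (log2 ratio 7.02, interval 6.69 to 7.38). It was 5.63 on the log2 scale without G27, and at least 11.41 without N24, when no read was left in the negative group. P5 positive cells had 0, 10.8 and 74.2 CPM as their lowest, median and highest values, and a sum of 21.3 CPM, of which L2P3 gave 57.7%. P5 negative cells had a sum of 5.08 CPM, nearly all from L2N7 at 14.7 CPM.

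E2f8 (chr7:48866429-48881596, minus strand), the other atypical E2F, reached 10 CPM in 8 of 10 E14.5 positive cells, a share of these cells only, as their animals are not named. Its lowest, median and highest values there were 0, 65.5 and 256.0 CPM, with G5 and G25 at 0 and G6 highest. Among E14.5 negative cells 2 of 11 reached that level, and N24 at 242.3 CPM gave 94.8% of the reads. The sums were 62.6 and 30.5 CPM, a log2 ratio of 1.04 that was 5.11 without N24. In P5 positive cells the summed level was 0.445 CPM (41 counts), no cell was above 1.24 CPM and 0 of 6 reached 10 CPM. Against E14.5 positive cells this was 141-fold lower (log2 ratio −7.14, interval −7.62 to −6.70), and −8.39 without L2P12. The exons of E2f8 share 11.2% of their length with Gm2788 on the opposite strand. How reads of that shared stretch were counted is not known, since the strand setting is not given in the sources used here.

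Rb1 (chr14:73183673-73325822, minus strand), the retinoblastoma protein, varied widely between cells of every group. Its lowest, median and highest values were 0, 10.6 and 68.7 CPM in E14.5 positive cells and 0, 13.1 and 270.3 CPM in E14.5 negative cells. N21 gave 46.5% of the negative group's reads. Positive cells stood at −1.20 on the log2 scale against negative ones, or −0.39 without N21. The P5 positive sum of 9.42 CPM came to 62.1% from L2P7 at 43.0 CPM. The P5 negative sum of 74.3 CPM came to 98.1% from L1N3 at 855.3 CPM. L1N3 was led by red blood cell markers at 2840 CPM, with endothelial markers close behind at 2230 CPM. That cell also had 1275 CPM of Lpar6, a receptor gene inside Rb1 on the opposite strand whose exons share 6.78% of the exonic length of Rb1. Rcbtb2, also on the opposite strand, shares 8.11% of that length. It was at 0 CPM in L1N3, at 12.2 CPM in N21 and at up to 259.6 CPM in other E14.5 cells, and N21 had 0 CPM of Lpar6. The part of reads from either gene in the Rb1 count was not tested.

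Rbl1 (chr2:157145893-157204534, minus strand), also called p107, is the pocket protein that is made in cycling cells. Its lowest, median and highest values were 0, 55.0 and 130.6 CPM in E14.5 positive cells, and 7 of 10 reached 10 CPM. In E14.5 negative cells they were 0, 0.167 and 178.5 CPM, 5 of 11 reached 10 CPM, and N24 gave 53.5% of the reads. The sums of 49.9 and 39.8 CPM differed by 0.33 on the log2 scale, or 1.25 without N24. The P5 positive sum was 8.65 CPM and L2P7 at 55.8 CPM gave 87.7% of it. The P5 negative cells had 1659 counts in all, and L2N4 was highest at 169.4 CPM.

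Rbl2 (chr8:91070057-91123844, plus strand), also called p130 and known as the pocket protein of resting cells, was the lowest of the 3 pocket proteins per kilobase of exon in both E14.5 groups, at 2.4 CPM per kilobase in positive and 0.41 in negative cells. The median of E14.5 positive cells was 1.55 CPM, and G27 at 68.0 CPM gave 90.7% of a summed level of 18.3 CPM. E14.5 negative cells summed to 3.13 CPM with a highest cell of 10.8 CPM (N28), a log2 ratio of 2.55 (5.84-fold) that was −0.47 without G27 and 3.62 without N28. L2P8 was the only P5 positive cell with reads, at 5.38 CPM. P5 negative cells summed to 4.09 CPM, with L2N9 at 27.8 CPM. The median cell was at 0 CPM in both P5 groups and in E14.5 negative cells. Exons of Aktip and Gm45464 on the opposite strand share 9.17% and 11.8% of its exonic length.

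Foxm1 (chr6:128362967-128376146, plus strand), the forkhead factor of G2 and mitosis, had reads in every E14.5 positive cell. The lowest, median and highest values were 8.07, 18.2 and 41.3 CPM, and 8 of 10 cells reached 10 CPM. In E14.5 negative cells 9 of 11 had no read, and the others were N25 at 1.38 CPM and N24 at 0.515 CPM. The groups did not overlap, as was so for 0.198% of the 12633 genes that had 10 or more counts in the 2 groups together, in the direction of higher in positive cells. The summed levels were 20.3 CPM (interval 19.7 to 21.1) and 0.220 CPM (43 counts), a 92.5-fold difference (log2 ratio 6.53, interval 6.10 to 7.0) that was 8.20 without N25. In P5 positive cells the lowest, median and highest values were 0.159 (L2P10), 80.1 and 136.4 CPM (L2P12), and the sum was 82.5 CPM (interval 80.6 to 84.4). L2P12, the cell led by endothelial markers, gave 40.4% of these reads. P5 negative cells had 0 of 82952801 counts. Set against 3 counts in that group (0.0362 CPM), P5 positive cells were at least 2280-fold higher, a log2 ratio of at least 11.16, and the lower end of its exact interval was 10.86. The cells of these groups did not overlap either, as was so for 1.43% of 11567 genes in that direction. At P5 this separation rested on 2 counts in L2P10, fewer than the 3 counts used as the floor. In the order P5 positive, E14.5 positive, E14.5 negative, P5 negative, the ranges of neighbours were separate only between E14.5 positive and E14.5 negative cells.

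Mybl2 (chr2:163054687-163084688, plus strand), B-Myb, was confined to few cells in each group. In E14.5 positive cells 6 of 10 were at 0 and G6 at 35.5 CPM gave 68.3% of a sum of 2.85 CPM. In E14.5 negative cells N24 at 130.4 CPM gave 99.8% of a sum of 15.6 CPM. The log2 ratio of −2.45 was −4.02 without G6 and 6.62 without N24, so its direction rested on N24. Of the P5 positive cells only L2P8 had reads, at 43.5 CPM, and P5 negative cells had 3 counts in all, in L2N9. Mybl2 and Foxm1 act on a shared set of promoters. Mybl2 had no read in 6 of the 10 E14.5 positive cells, and Foxm1 was read in all 10. Whether the cells without a read lacked the Mybl2 transcript was not tested.

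Levels were compared between genes only per kilobase of exon. In E14.5 positive cells E2f8 was highest at 11.5 CPM per kilobase, then Rbl1 at 8.33, and Mybl2 was lowest at 0.616 CPM per kilobase. In E14.5 negative cells E2f3 led at 26.2 CPM per kilobase. In P5 positive cells Foxm1 led at 14.3 CPM per kilobase and E2f8 was lowest at 0.0818 CPM per kilobase. The gene with the highest level per length thus differed between these 3 groups.

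**Figure D2:**
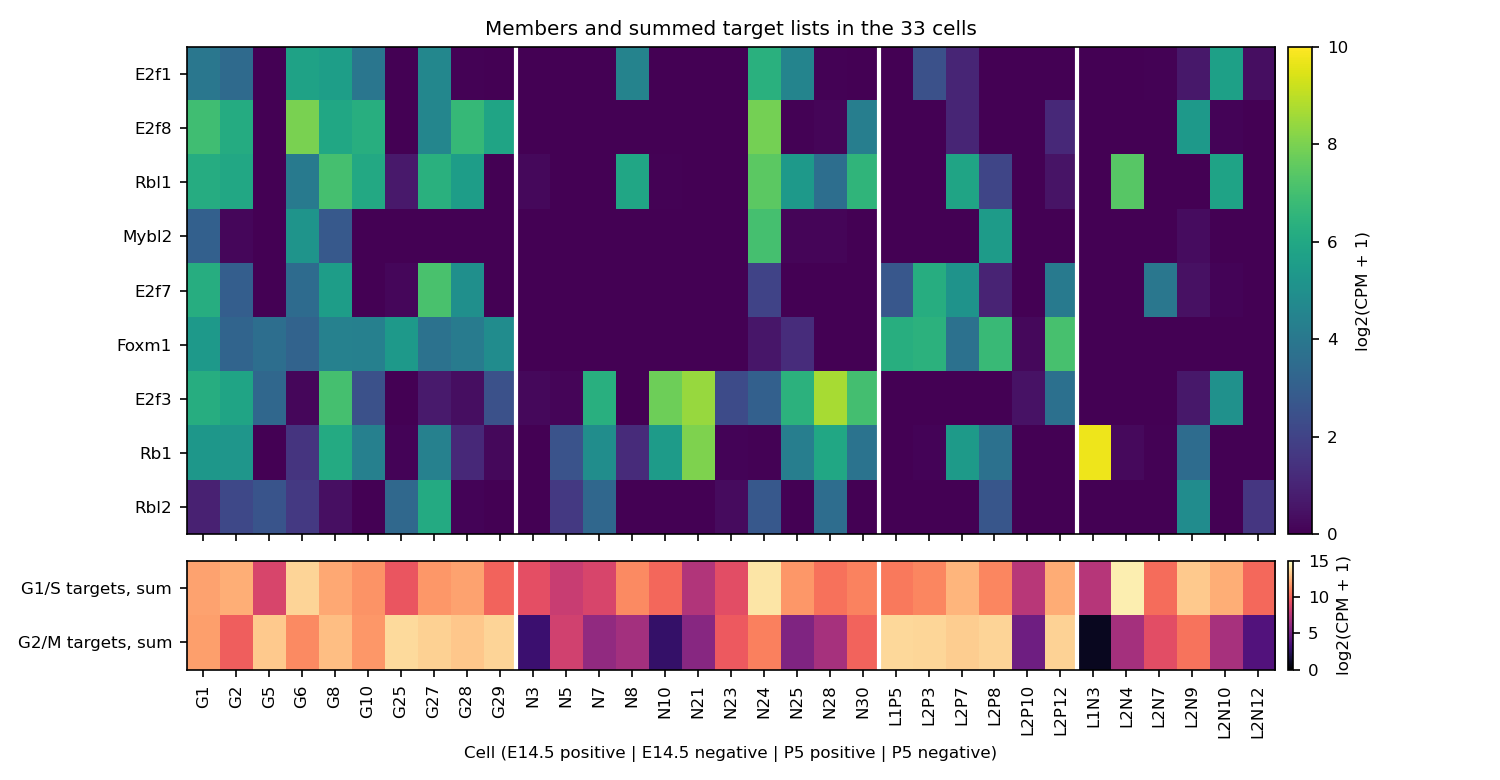
Heat map of log2(CPM + 1) of the 9 genes and of the summed G1/S and G2/M lists in all 33 cells, ordered by group. N24 stands out among E14.5 negative cells with a G1/S sum of 18940 CPM, and L2P10 among P5 positive cells with a G2/M sum of 28.32 CPM. All 9 genes were read in N24, Rb1 by 1 count only. At 10 CPM it had 4 of them, as had N25, N28 and N30.

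The first comparison asked how cells with and without the reporter differ at E14.5. Of the 9 genes, 5 were at least 4-fold apart, beside 31.4% of all 12633 genes compared: 3 were higher in positive cells (E2f7, Rbl2 and Foxm1), 2 were lower (E2f3 and Mybl2), and 4 lay between. Over all genes, 14.4% were at least 4-fold higher and 17.0% lower. The median log2 ratio of the 9 was 0.33, beside −0.16 over all genes. The cells fall into title numbers from 1 to 10 and from 21 to 30, which the labels do not explain. Within these, the log2 ratio was at least 8.41 and 6.13 for Foxm1 and at least 8.82 and 6.90 for E2f7, the only members at least 4-fold apart in one direction in both. E2f3 gave −0.77 and −7.04, E2f1 2.36 and −0.88, E2f8 at least 10.76 and 0.07, and Rbl1 2.21 and −0.24. Rb1 gave 0.56 and −2.45, Rbl2 0.05 and 2.93, and Mybl2 at least 7.18 and at most −9.50. N24 has one of the later numbers.

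The next comparison set P5 positive against E14.5 positive cells, which asks how reporter positive cells differ between a stage of growth by division and one near its end. Foxm1 was 4.05-fold higher at P5 (log2 ratio 2.02, interval 1.96 to 2.08), close to the 4-fold rule, and Mybl2 was 2.15 higher on the log2 scale. E2f1 (−4.04), E2f3 (−2.71), E2f8 (−7.14), Rbl1 (−2.53) and Rbl2 (−3.55) were at least 4-fold lower, and E2f7 (−1.15) and Rb1 (−0.77) lay between. These 7 of 9 stand beside 47.3% of 12262 genes that were at least 4-fold apart, with 19.8% higher and 27.4% lower, and the median was −0.39, beside −2.53 for the 9. Without L2P12, the log2 ratio of Foxm1 was 1.68, that of E2f3 −8.07 and that of E2f8 −8.39. The ratio of E2f1 was −6.45 without L2P3, that of Rbl1 −5.34 without L2P7, and that of E2f7 0.25 without G27 and −2.13 without L2P3. Rb1 was −1.96 without L2P7, and E2f3 was −1.69 without G8. Rbl2 was −0.52 without G27 and at most −8.64 without L2P8, and Mybl2 was at most −5.96 without L2P8 and 3.72 without G6. The low level of E2f8 at P5 held without any single cell, with log2 ratios from −8.39 to −6.64.

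**Figure D3:**
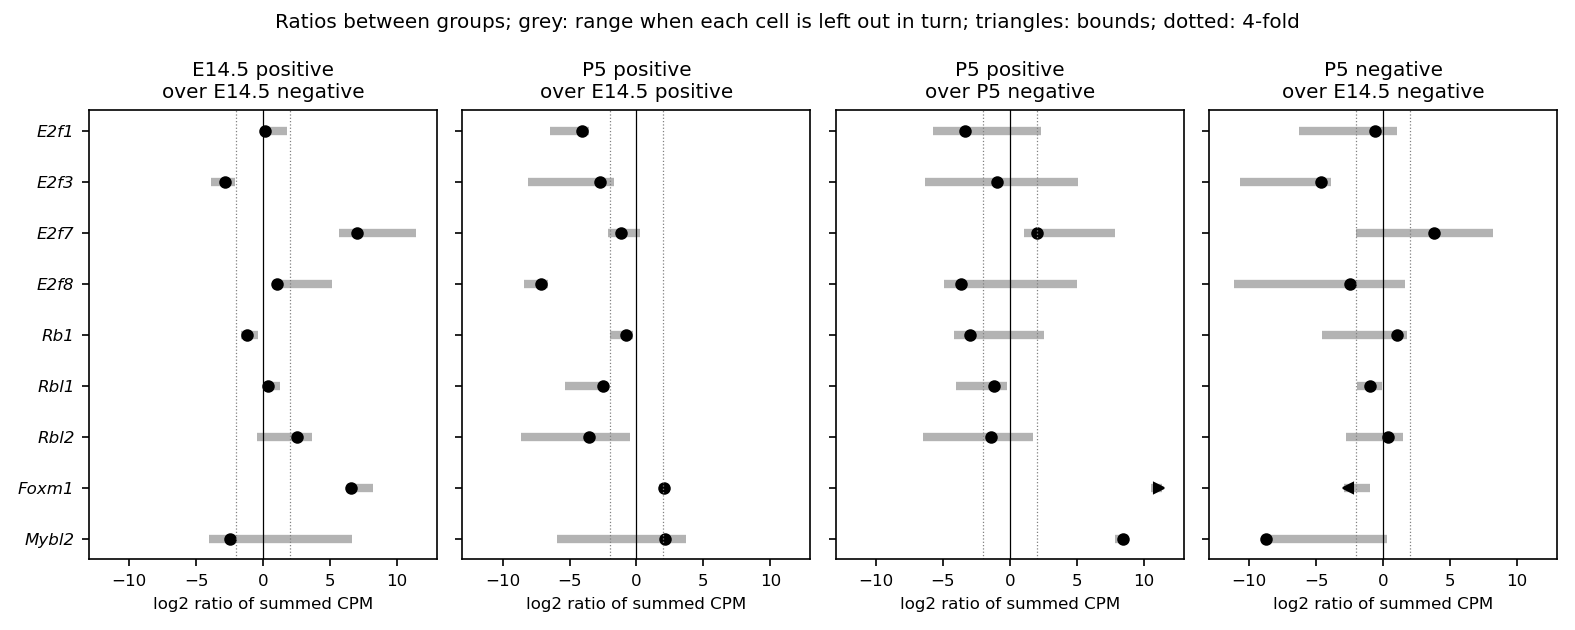
Log2 ratio of summed CPM for each gene in 4 comparisons, with the range over leaving out each cell in turn as grey bars, bounds as triangles and 4-fold as dotted lines. Foxm1 stays at or above 6.25 for positive over negative cells at E14.5, whereas the bar of Mybl2 runs from −4.02 to 6.62.

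All 6 P5 negative cells were led by markers of other types, as was L2P12 among P5 positive cells and N10 among E14.5 negative cells. Against P5 positive cells, reporter state and cell type cannot be told apart, and against E14.5 negative cells, stage and cell type cannot be told apart. P5 positive over P5 negative cells, which share the positive group with the comparison before, had 3 of 9 at least 4-fold higher: E2f7 (2.07), Foxm1 (at least 11.16) and Mybl2 (8.45, interval 6.90 to 10.73). E2f1 (−3.31), E2f8 (−3.63) and Rb1 (−2.98) were lower, and E2f3 (−0.95), Rbl1 (−1.21) and Rbl2 (−1.39) lay between, so that 6 of 9 were at least 4-fold apart beside 53.3% of all genes, of which 25.6% were higher and 27.7% lower. The 3 lower values each turned without 1 negative cell: E2f1 was 2.36 without L2N10, E2f8 5.00 without L2N9, and Rb1 2.59 without L1N3. Without a positive cell they were −5.72 for E2f1 (L2P3), −4.89 for E2f8 (L2P12) and −4.17 for Rb1 (L2P7). E2f7 was 1.09 without L2P3 and 7.86 without L2N7, and it was under 4-fold without 7 of the 12 cells, each in turn. E2f3 was −6.31 without L2P12 and 5.08 without L2N10. Rbl1 was −4.02 without L2P7 and −0.23 without L2N4, and Rbl2 was at most −6.48 without L2P8 and 1.77 without L2N9. Mybl2 had no ratio without L2P8, its only P5 positive cell with reads. P5 negative over E14.5 negative cells had E2f7 higher (3.81, and −1.99 without L2N7) and E2f3 (−4.64), E2f8 (−2.47), Foxm1 (at least 6.08-fold lower) and Mybl2 (−8.75, and 0.32 without N24) lower, which is 5 of 9 beside 54.8% of all 12552 genes at least 4-fold apart, with 23.8% higher and 31.0% lower. E2f8 there was 1.61 without N24 and −11.10 without L2N9, and Foxm1 was at most −0.94 without N25. E2f3 was −10.67 without L2N10 and −3.88 without N28. E2f1 (−0.58), Rb1 (1.01), Rbl1 (−0.99) and Rbl2 (0.39) lay between. Of these, E2f1 was −6.25 without L2N10 and 1.03 without N24, and Rb1 was −4.56 without L1N3 and 1.82 without N21. Rbl1 was −1.98 without L2N4 and −0.07 without N24, and Rbl2 was −2.77 without L2N9 and 1.46 without N28.

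Other genes of the pathway were taken as 5 lists, to be read beside the shares of all genes at least 4-fold higher and lower in the same comparison. Of 24 genes known as targets of B-Myb, MuvB and Foxm1 in G2 and mitosis, 23 were at least 4-fold higher in E14.5 positive than negative cells and 0 lower, beside 14.4% and 17.0% of all genes, with a median log2 ratio of 4.77 beside −0.16 over all genes. Aurka, a spindle kinase, was highest at 13.25 (interval 10.78 to 18.56), against 1 count in the negative group, and was at least 11.52 without N10, which holds that count. Cdc25b, a phosphatase that activates Cdk1, was lowest at 1.90, or 2.95 without N28. Without N24 the median was 8.17. In P5 positive against E14.5 positive cells 3 of 24 were higher and 0 lower, beside 19.8% and 27.4% of all genes, with a median of 0.17 beside −0.39. The number higher was 1 without L2P8 and 6 without G25. Cdc25c, a related phosphatase, was highest at 2.92 (1.98 without L2P8), and Birc5, a subunit of the chromosomal passenger complex, was lowest at −0.55 (−1.17 without L2P12). All 24 were at least 4-fold higher in P5 positive than in P5 negative cells, beside 25.6% of all genes, with a median of 5.16 beside −0.29. The number was 21 without L2P8, and the median was 10.45 without L2N9. Cenpf, a kinetochore protein, was highest at 15.30 (at least 13.59 without L1N3), and Cdc25b was lowest at 2.25 (1.64 without L2N7, 11.07 without L2N9). In P5 against E14.5 negative cells 10 were higher and 7 lower, beside 23.8% and 31.0% of all genes. Cenpe, a kinetochore motor, was highest at 9.5 (0.84 without L2N7), and Bub1, a checkpoint kinase, lowest at −9.42 (−4.41 without N24). These numbers were 5 and 12 without L2N9 and 12 and 4 without N24.

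The 22 G1/S genes known as E2F targets gave fewer genes apart by reporter. At E14.5, 2 were at least 4-fold higher in positive cells and 2 lower, both below the 14.4% and 17.0% of all genes, with a median of −0.29 beside −0.16. Tk1, a thymidine kinase, was highest at 3.37 (1.76 without G27, 4.02 without N23). Ccne2, a cyclin of the G1 to S step, was lowest at −3.24 (−7.30 without G1, −0.34 without N24). Without N24, 9 of the 22 were higher and 0 lower, and the median was 0.85. In P5 positive against E14.5 positive cells 2 were higher and 1 lower, beside 19.8% and 27.4% of all genes, with a median of −0.07 beside −0.39. Tk1 was highest at 2.25 (3.86 without G27) and Ung, an enzyme that removes uracil from DNA, lowest at −4.11 (−7.63 without L2P8, −3.49 without G6). Without L2P12, 7 were lower and the median was −1.12. Without L2P8, 0 were higher. In P5 positive against P5 negative cells 2 were higher and 7 lower, beside 25.6% and 27.7% of all genes, with a median of −1.20 beside −0.29. Rrm2, a subunit of ribonucleotide reductase, was highest at 3.86 (12.56 without L2N9), and Mcm2, a helicase subunit, lowest at −5.57 (−8.10 without L2P3, −3.28 without L2N4). The number higher there was 6 without L2N9. In P5 against E14.5 negative cells 7 were higher and 1 lower, beside 23.8% and 31.0% of all genes. Pola1, a DNA polymerase subunit, was highest at 4.33 (1.99 without L2N4, 5.53 without N25), and Ung was lowest at −5.26 (−8.12 without L2N10, −4.66 without L2N7). The counts were 13 higher without N24 and 6 lower without L2N9.

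Among 6 other E2F and DP genes, 2 were at least 4-fold higher in E14.5 positive cells and 0 lower, beside 14.4% and 17.0% of all genes. The number higher was 1 without any of several single cells, G8 among them. E2f2, another activator, was highest at 2.32 (1.33 without G8, 3.76 without N24), and the DP partner Tfdp2 was lowest at −0.33 (0.32 without N10). E2f2 at P5 was read in 1 of 6 positive cells, L2P12, so that its log2 ratio of 2.10 against E14.5 positive cells was at most −4.45 without that cell. In that comparison 1 of the 6 was higher and 2 lower, beside 19.8% and 27.4% of all genes, and E2f5, an E2F known as a repressor, was lowest at −3.44 (−5.02 without L2P8, −1.82 without G25). Against P5 negative cells 1 was higher and 0 lower, beside 25.6% and 27.7%. E2f2 was highest there at 4.69 (at most −1.86 without L2P12) and E2f4 lowest at −0.89 (1.92 without L2N10), and 4 were higher without L2N9. Between P5 and E14.5 negative cells 0 were higher and 3 lower, beside 23.8% and 31.0%, from Tfdp1 at 0.52 (−2.35 without L2N9) to E2f5 at −3.73 (−4.47 without L2N9, −2.43 without N10).

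Among 6 genes of the MuvB core and A-Myb, 1 was higher and 0 lower at E14.5, beside 14.4% and 17.0% of all genes. It was Mybl1 (A-Myb) at 2.63, with at most −1.03 without G2 and 5.45 without N25. The MuvB subunit Lin52 was lowest at −1.54 (−2.68 without G25, 0.98 without N24). Between P5 and E14.5 positive cells 0 were higher and 2 lower, beside 19.8% and 27.4%, from Lin52 at −0.28 (at most −6.40 without L2P8, 0.86 without G25) to Mybl1 at −2.96 at most. Against P5 negative cells 3 of 5 measured genes were higher and 0 lower, beside 25.6% and 27.7%. Lin54, the DNA-binding subunit, was highest there at 6.01 (−0.02 without L2P7) and Lin52 lowest at −1.15 (at most −7.27 without L2P8, 0.40 without L2N7). Between P5 and E14.5 negative cells 0 of 5 were higher and 2 lower, beside 23.8% and 31.0%, from Rbbp4 at −0.44 to Lin54 at −7.94 (at most −10.27 without L2N12, −3.74 without N24).

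Of 12 measured genes among 13 cyclin D, kinase and inhibitor genes, 2 were higher and 1 lower at E14.5, beside 14.4% and 17.0% of all genes. Cdkn2c, an inhibitor of Cdk4 and Cdk6, was highest at 4.01 (12.22 without N25). Cdkn2b, a relative of it, had no read in positive cells and was lowest, at most −6.75. Without N21, 0 were lower, and without G29, 3 were. Between P5 and E14.5 positive cells 3 were higher and 2 lower, beside 19.8% and 27.4% of all genes, or 1 and 3 without L2P12. Ccnd1, cyclin D1, was highest at 4.78 but −2.87 without L2P12 and 5.49 without G28. The inhibitor Cdkn1c was lowest at −8.21, and −12.64 without L2P7. Against P5 negative cells 4 were higher and 3 lower, beside 25.6% and 27.7%, from Cdkn2c at 10.42 (9.82 without L2N7) to Cdkn1c at −9.47 (−13.90 without L2P7, −5.45 without L2N12). Between P5 and E14.5 negative cells 2 were higher and 4 lower, beside 23.8% and 31.0%, from Ccnd1 at 4.28 (4.87 without N28) to the inhibitor Cdkn2d at −6.85 (−9.06 without L2N9, −6.25 without L2N7). Without L2N12, 7 were lower.

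**Figure D4:**
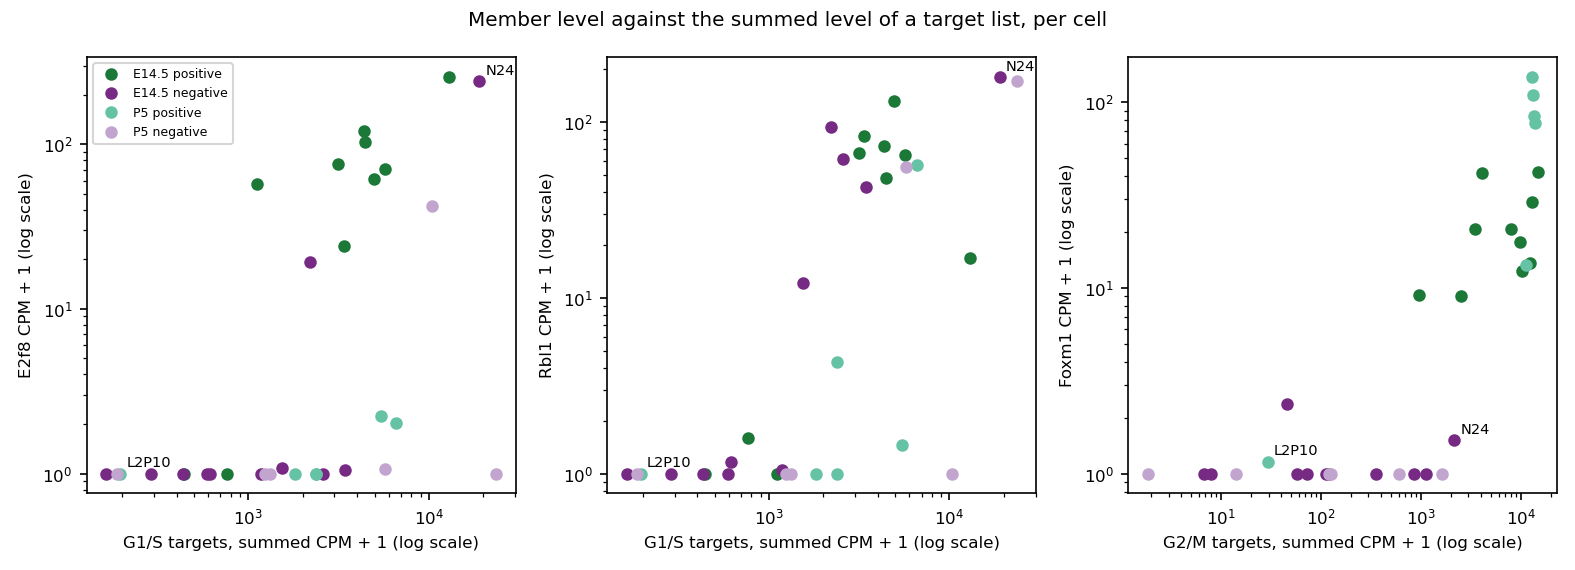
Level of a gene (CPM + 1) against the summed level of a target list (CPM + 1) in each of 33 cells, both axes on log scales and colours for the groups. Over the 33 cells together, on log2 values, Foxm1 has r = 0.80 with the G2/M sum and Rbl1 has r = 0.71 with the G1/S sum. These r span groups sorted by the reporter, and r within a group was not computed. Among E14.5 positive cells, Foxm1 was at 41.3 CPM in G25 (G2/M sum 14730 CPM) and at 40.6 CPM in G1 (4117 CPM).

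Across cells the 9 genes differed in how they went with the target lists, and several went with both. The values are Pearson correlations of log2(CPM + 1), which describe cells that share a group, a library preparation and differences in depth, and no p is given. They also span groups sorted by the reporter, and no r within a group was computed. Rbl1, E2f1 and E2f8 went with the summed G1/S list, with r of 0.71, 0.57 and 0.56 over 33 cells and 0.85, 0.81 and 0.80 over the 21 E14.5 cells. N24 had the highest G1/S sum of the E14.5 cells, and no r with a list was computed without it. Foxm1 went with the G2/M list, with r of 0.80 and 0.81, and less with the G1/S list at 0.26 and 0.35. E2f8 also had r of 0.45 and 0.61 with the G2/M list. E2f7 had 0.58 and 0.52 with the G2/M and 0.43 and 0.58 with the G1/S list, and Mybl2 had 0.43 and 0.67 with the G1/S and 0.27 and 0.25 with the G2/M list. E2f1 had 0.17 and 0.25, and Rbl1 0.21 and 0.33, with the G2/M list. E2f3 had r of −0.18 and −0.35 with the G2/M and −0.04 and −0.08 with the G1/S list. Rb1 and Rbl2 had r between −0.30 and 0.30 with either list. Among pairs, E2f1 and Rbl1 had r of 0.68 over all cells, 0.77 at E14.5 and 0.74 there without N24. E2f7 and E2f8 had 0.43, 0.66 and 0.69, and E2f8 and Foxm1 had 0.27, 0.57 and 0.68. E2f3 and Rb1 had 0.50, 0.78 and 0.80. E2f3 and Foxm1 had −0.17, −0.24 and −0.26.

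**Figure D5:**
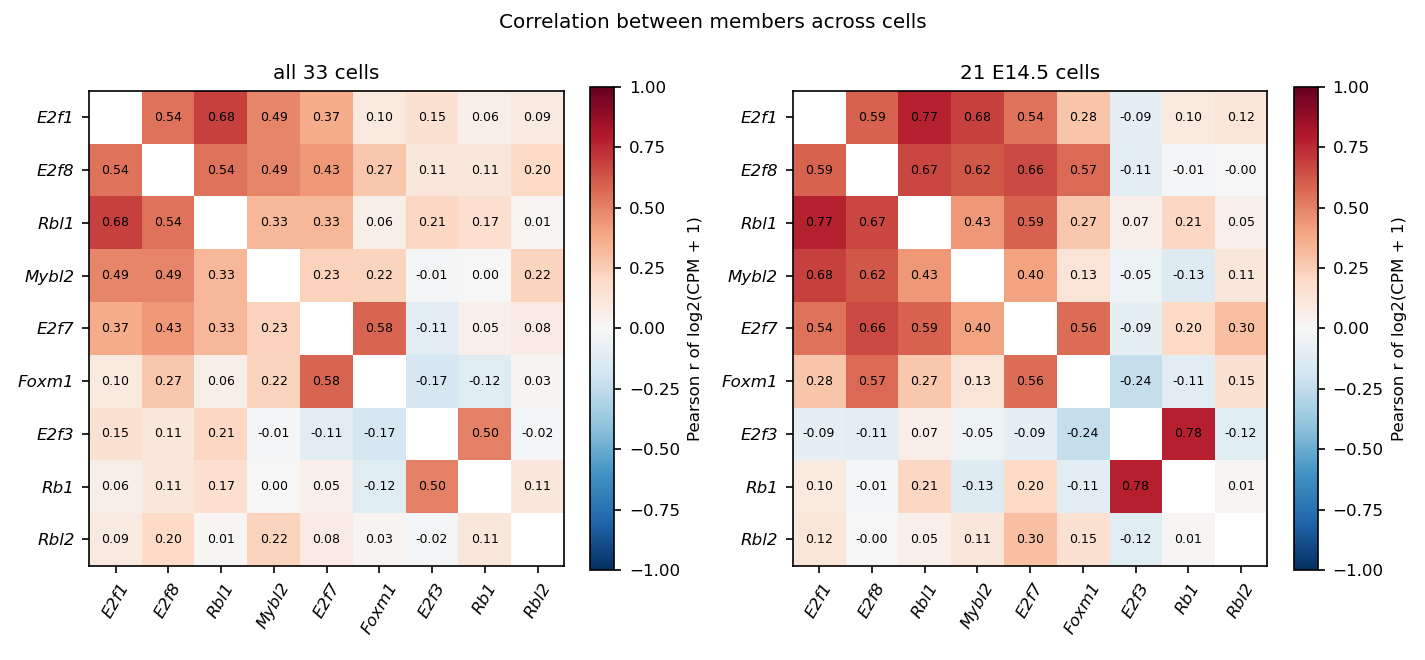
Pearson r of log2(CPM + 1) between each pair of the 9 genes over all 33 cells and over the 21 E14.5 cells. E2f1 with Rbl1 (0.68 and 0.77) and E2f3 with Rb1 (0.50 and 0.78) are among the higher pairs, and E2f3 with Foxm1 is below 0 in both.

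The genes most like each of the 9 over the 33 cells were named among those with at least 10 CPM in at least 5 cells. These r also span the groups sorted by the reporter. Foxm1 was most like Aurka, Hmmr and Kif2c (each r = 0.92), then Sgol1 and Cenpf (0.91), all known from the mitotic spindle or chromosomes. E2f8 was most like Stil (0.84), Igf2bp1 (0.83), Pole (0.79), Fignl1 (0.78) and Cenph (0.77). Rbl1 was most like Mcm6 (0.75), a subunit of the replicative helicase, then Wdr76, Dtl (both 0.71), Dnaaf2 (0.69) and E2f1 itself (0.68). E2f1 was most like Dnaaf2 and Prkdc (0.76), Pole2 (0.73), D16Ertd472e (0.72) and Prim2 (0.70), of which Pole2 and Prim2 encode subunits of DNA polymerase and primase. E2f7 was most like Fam72a (0.75), Neil3 (0.70), Cenpp, Oip5 and Cenpe (0.69). Mybl2 was most like Fat3 (0.91), B630019K06Rik (0.81), Ube2cbp (0.71) and Clspn (0.67). It reached 10 CPM itself only in G6, N24 and L2P8, so these r rest on few cells. Rb1 was most like Sp2 (0.69), Timmdc1 (0.68), Etv1 (0.66), Stard5 and BC005624 (0.63). E2f3 was most like Zfp867 (0.73), Skil (0.67), 4930526I15Rik (0.66), Cblb (0.65) and Pth1r (0.62). Rbl2 was most like Cep290 (0.64), Skap2 (0.63), Syce2, Tm7sf3 and Ppp2r2d (0.54). It reached 10 CPM itself only in G27, N28 and L2N9, so its r also rest on few cells. In the 21 E14.5 cells alone the lists of 5 shared 2 genes for E2f1, E2f8, Rb1 and Mybl2, 1 for E2f7, Rbl1, Rbl2 and Foxm1, and 0 for E2f3, whose closest gene there was Rb1 (0.78). For Foxm1 the E14.5 list was led by Kif15 (0.97), Nusap1, Hmmr and Prc1 (0.96) and Cenpe (0.95).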

How the data were processed

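Single cell RNA libraries of 33 sorted ventricular cells were made with TruSeq, per the labels' protocols. The deposited table holds the authors' raw counts per gene and cell. The submitters' processing notes name CASAVA 1.8.2, STAR 2.4.0j, HTSeq 0.6.1p1 and the build mm10, and the annotation, the strand setting and the handling of reads shared by genes are not given in the sources used here. Gene names altered on export were restored. Groups came from the labels of stage and reporter, and 0 columns were left unmapped. The labels name no animal, so each group is 1 sample: no difference between groups was tested. Dixon's limits only marked single cells far from their group. No doublet caller was run, and the labels make each library 1 cell. N10 had high sums of both cardiomyocyte (23420 CPM) and fibroblast and mural markers (46240 CPM). Whether any library held more than 1 cell was not tested.

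The counts of a gene were added up within each group and scaled to the group's total (CPM). CPM has exact Poisson 95% intervals and log2 ratios exact binomial ones (Clopper-Pearson), which cover counting error only, as reads without molecular identifiers are not independent molecules. With 0 counts in a group, a bound is given instead, with 3 counts in that group as its floor, which is not the upper end of the Poisson interval. Genes at least 4-fold apart with at least 10 counts over both groups were counted. Python 3.11.15, numpy 2.4.6, pandas 2.3.3, scipy 1.17.1 and matplotlib 3.10.9 were used, with edgeR 4.0.16 and DESeq2 1.42.0 in R 4.3.3 only for size factors in alternatives. On simulated data (E14.5 positive over negative, 14862 genes), 100% of 200 changed genes were counted, 9 unchanged genes were counted too, and 95.0% of the intervals covered the true ratio. The simulated counts were Poisson draws without the spread between cells seen here, and the changed genes were set beyond 4-fold. These shares therefore check the arithmetic only, and not how calls or intervals hold for the real cells.

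The 9 genes are always named. From the lists, the genes with the highest and lowest log2 ratio in a comparison are named, and for each of the 9 the 5 genes with the highest r over 33 cells, of which 1 is not reported here. The genes and lists were chosen with earlier results of these data known. Alternatives were equal weight of cells, TMM and DESeq2 size factors, thinning to 1 total, no count minimum, 2-fold, subsets by marker or title, and leaving out each cell.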

Additional observations from a re-analysis of the deposited data

Results flagged for a closer look

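In 26 combinations of a gene and a group of 6 or 10 cells, the highest or lowest cell could be set against the others by Dixon's ratio, and 17 had a cell far above the rest. Chance gives about 1 in 20 for normally distributed values only. Most values here were 0 or near 0, where a single cell with reads can pass the limit, so the number of such cells is a description and not evidence against chance. The 11 E14.5 negative cells were too many for that table and were not tested. In E14.5 positive cells these were E2f8 in G6 at 256.0 CPM (next cell 119.7), Rbl2 in G27 at 68.0 CPM (next 9.48) and Mybl2 in G6 at 35.5 CPM (next 7.33). In P5 positive cells they were E2f1 in L2P3 at 4.59 CPM (next 1.04), E2f3 in L2P12 at 11.9 CPM (next 0.398), Rb1 in L2P7 at 43.0 CPM (next 12.3), Rbl1 in L2P7 at 55.8 CPM (next 3.29), and Rbl2 at 5.38 CPM and Mybl2 at 43.5 CPM in L2P8 (next 0 for both). In P5 negative cells L2N10 had E2f1 at 50.3 CPM and E2f3 at 32.3 CPM (next 0.545 for both). L2N9 had E2f8 at 41.5 CPM (next 0.0691), Rbl2 at 27.8 CPM (next 1.96) and Mybl2 at 0.272 CPM (next 0). L2N7 had E2f7 at 14.7 CPM (next 0.363), L1N3 had Rb1 at 855.3 CPM (next 10.6) and L2N4 had Rbl1 at 169.4 CPM (next 54.4). Foxm1 had no such cell in the E14.5 positive and P5 positive groups. Its P5 negative cells were all at 0 and could not be set against each other.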

How the results depend on the processing

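No paired analysis was possible because replicate numbers only follow accession order and no difference between groups was tested. The number of the 9 genes at least 4-fold apart was 5 at E14.5 (3 with each cell weighted equally, 4 to 6 leaving out each cell), 7 between P5 and E14.5 positive cells (4 after thinning each cell to 8671357 counts, which left out 6 cells, and 4 without G27 to 8 without L2P3), 6 at P5 (5 to 7) and 5 between P5 and E14.5 negative cells (2 without L2N7, 3 without N24 and 6 without L1N3). TMM and DESeq2 size factors moved no gene across 4-fold, while the median log2 ratio of all genes between P5 and E14.5 positive cells was −0.39 by totals, −0.23 by TMM and 0.0 by DESeq2. The log2 ratio of Foxm1 in that comparison was 2.18 by TMM, 2.4 by DESeq2, 1.75 with equal weight and 1.61 after thinning, and it was under 4-fold without 7 of 16 cells, each in turn.

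At E14.5, Mybl2 turned to at least 7.18 in title numbers 1 to 10 and ran from −4.02 to 6.62 leaving out each cell, and Rbl2 from −0.47 to 3.62. Mybl2 ran from at most −5.96 to 3.72 between P5 and E14.5 positive cells. At P5, E2f1 ran from −5.72 to 2.36, E2f8 from −4.89 to 5.00 and Rb1 from −4.17 to 2.59, with 2.03 after thinning and 2.63 in cells of title prefix L2. The Rb1 values 2.59, 2.03 and 2.63 all came without L1N3, which gave 98.1% of the P5 negative Rb1 reads. Thinning left that cell out because its total was below 8671357 counts. Between P5 and E14.5 negative cells, E2f7 ran from −1.99 to at least 8.19, E2f8 from −11.10 to 1.61 and Mybl2 from −9.03 to 0.32. Leaving out cells led by other markers removes all P5 negative cells and gave no value there. Apart from these single cells and subsets, the cause was not tested.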
